A study of Mus musculus with 8 samples.

Results

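Organ lineage transcription factors are DNA-binding proteins that help to set up an organ in the embryo and often stay on in the cells of the adult organ. The 10 genes described here are the caudal-type homeobox genes Cdx1 and Cdx2, the GATA zinc finger genes Gata4, Gata5 and Gata6, the homeobox genes Nkx2-1 and Emx1, the paired box genes Pax2 and Pax8, and the SRY-box gene Sox2. They were chosen by gene symbol, all 10 symbols were found, and they are 10 of the 52195 genes in the expression table. The data are bulk RNA sequencing of small intestine, lung, kidney and liver, taken from males of the inbred strain C57BL/6J (C57BL/6 in the sample labels) aged 6 to 10 weeks, with 2 libraries per tissue and 8 libraries in all. The mice carried no transgene and received no treatment that the descriptions name, and the replicates of a tissue came from separate mice. By the study's methods each mouse gave all 4 tissues, but the labels do not say which libraries share a mouse. The question for each gene is in which organs its mRNA was present, at what level, and whether organs differed beyond the spread between libraries.

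CDX proteins specify the intestinal epithelium and keep it intestinal in the adult, and GATA4, GATA5 and GATA6 act in endoderm and heart as well as in the gut and its derivatives. NKX2-1 is required for the lung and the thyroid and drives surfactant genes, and SOX2 marks the conducting airways in addition to its roles in stem cells and neural tissue. PAX2 and PAX8 act together at the start of kidney formation, and EMX1 is best known from the developing cerebral cortex, where it works beside its relative EMX2.

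Values are FPKM, fragments scaled to the length of the transcript in kilobases and to library size, so levels can be set side by side between genes of a library. Between tissues the deposited values are shifted against each other, by the medians given below over all genes. Between 9164184 and 21444659 reads per library lay on genes. A count of 3 reads on a gene with 1 kb of exons equals an FPKM of 0.140 in the deepest library and 0.327 in the shallowest, and levels under 3 reads are not told from 0. Differences between tissues are given on the log2(FPKM + 1) scale from limma, with the Benjamini-Hochberg adjusted p over the 16328 genes that reached an FPKM of 1 in at least 2 libraries. A gene is called higher or lower at an adjusted p under 0.05 and a log2 difference over 1 in size. The added 1 makes these differences smaller than the true ratio for low genes, so ratios of FPKM are given as well. In bulk tissue, fewer cells of a type and less RNA per cell cannot be told apart.

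Each organ carried its own marker genes. The summed FPKM of 6 kidney tubule genes was 1396 to 1995 in kidney and at most 9.13 elsewhere, and that of 5 alveolar type 2 genes was 14206 to 16391 in lung and at most 26.1 elsewhere. For 5 hepatocyte genes it was 41486.9 to 47194.5 in liver and up to 531 elsewhere, in kidney. For 5 enterocyte genes it was 6311 to 7943 in small intestine and up to 62.4 elsewhere, in liver. Some libraries stood apart. In kidney replicate 2, lung replicate 1 and both liver libraries, 6 forebrain genes chosen after their values were seen (Pax6, Dlx1, Dlx2, Dlx5, Dlx6 and Sp9) summed to 2.58, 4.75, 2.91 and 5.60 FPKM, against 0.0160 to 0.178 in the other 4 libraries. The embryonic globin gene Hbb-y was at 5.29, 2.75, 0.172 and 5.51 FPKM in those 4 libraries and at 0 in the rest, with 1 read behind the value of liver replicate 1, which is not told from 0. Hoxc4, a gene of the body axis and not of the forebrain, also named after its values were seen, had the same split, at 4.41, 6.86, 5.44 and 2.15 FPKM against at most 0.582. Nr2f1, chosen in the same way, was at 22.9, 35.4, 30.2 and 31.5 FPKM in them, but also had 158 reads in lung replicate 2, and was at most 0.275 FPKM elsewhere. The small intestine libraries differed in genes of neighbouring gut regions. The 5 listed stomach genes summed to 98.0 FPKM in replicate 1 and 0.141 in replicate 2. Nearly all of the sum in replicate 1 was Gkn1 and Gkn2, at 30.6 and 66.7 FPKM there and both at 0 in replicate 2, while Tff1 and Muc5ac were at 0.223 and 0.407 against 0, and the acid pump gene Atp4a was at 0.0852 and 0.141. The further stomach genes Gkn3 and Muc6, named after their values were seen, were at 419 and 21.1 FPKM in replicate 1 against 4.13 and 0.0660. The ileal bile acid binding protein gene Fabp6 was at 0.223 FPKM in replicate 1 and 25.4 in replicate 2.

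**Figure D1:**
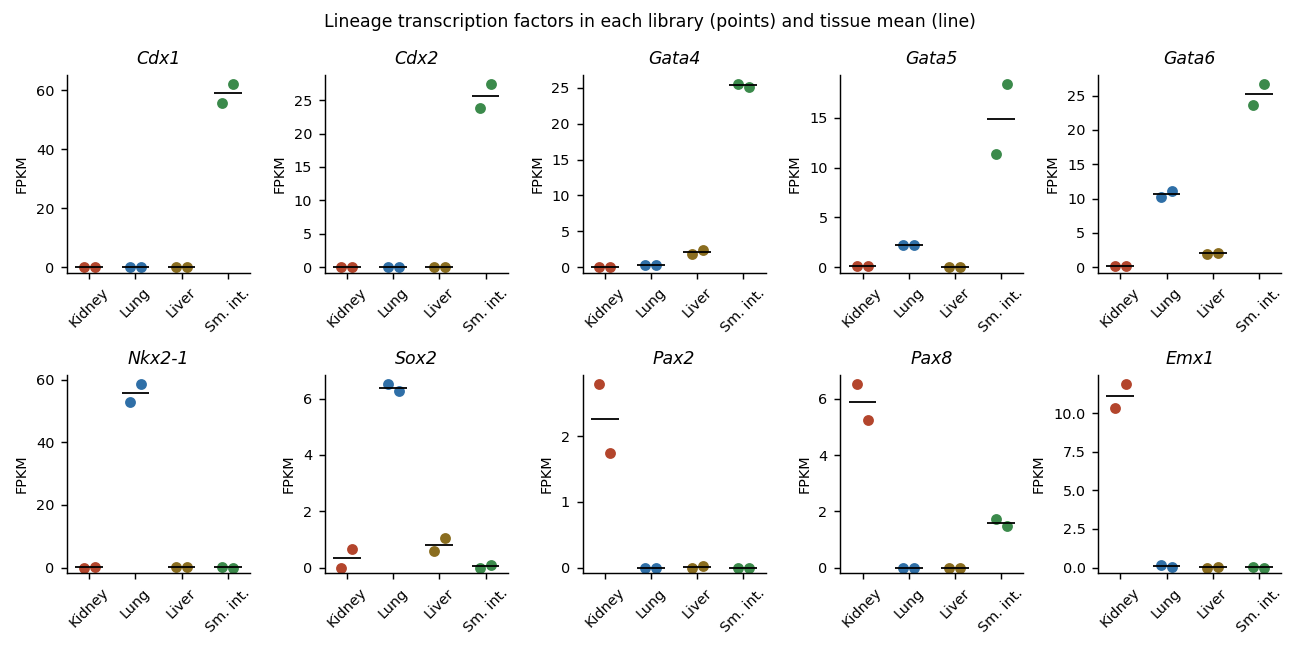
FPKM of the 10 lineage transcription factors in each of the 8 libraries, 1 panel per gene with its own linear axis from 0, grouped by tissue on the horizontal axis, with points for libraries and a line for the mean of the 2 libraries. In every panel both libraries of 1 tissue lie above the other 6, and Gata6, Pax8, Gata5, Gata4 and Sox2 also show points off the floor in a further tissue.

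Every one of the 10 genes had 1 tissue in which both libraries exceeded all 6 others. Small intestine was that tissue for Cdx1, Cdx2, Gata4, Gata5 and Gata6, lung for Nkx2-1 and Sox2, and kidney for Pax2, Pax8 and Emx1, while no gene was highest in liver. The tissue being picked for this order, the exact permutation test of its 2 libraries against the other 6 can only return its smallest two-sided p, 0.0714, and adds nothing to it. In the fit over all genes, each tissue was set against the average of the rest. In small intestine 5 of the 10 were called higher, where 13.7% of all genes tested were. Kidney had 3 of 10 called higher beside 8.65% of all genes, lung 3 of 10 beside 40.7%, and liver 0 of 10 beside 6.56%. Called lower were 7 in liver (32.7% of all genes), 6 in kidney (16.1%), 5 in lung (8.26%) and 3 in small intestine (11.3%). All 10 genes passed the filter on low values, but 5 of them, Cdx1, Cdx2, Nkx2-1, Pax2 and Emx1, reached an FPKM of 1 in only 2 libraries, so they passed it through the tissue in which they were high. The lung share in particular has to be read against its background. As deposited, the median log2 difference over the tested genes stood at 0.82 for lung, -0.72 for liver, -0.34 for kidney and -0.01 for small intestine, and median-of-ratios scaling brought it between -0.14 and -0.02 for each tissue.

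Cdx1 (chr18:61018862-61036199, GRCm38) had the highest level of any of the 10 genes. The small intestine libraries were at 55.6 and 62.2 FPKM, the lung libraries at 0.176 and 0.0460, the kidney libraries at 0.0533 and 0.0330, and the liver libraries at 0 and 0.0553. By level it ranked 916 and 794 among all genes in the small intestine libraries. No library outside the intestine held more than 3 reads of Cdx1, so the intestine and the other organs do not come near each other. The log2 difference of small intestine from the other tissues was 5.82 (SE 0.13, adjusted p = 1.88e-07), and the pooled ratio to lung, which rests on 4 lung reads, was 575 with an exact 95% interval from 224 to 2112. The ratio of FPKM was 1281 without lung replicate 1 and 336 without lung replicate 2.

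Cdx2 (chr5:147300805-147307270), which binds the same kind of AT-rich sites as CDX1, was at 23.9 and 27.5 FPKM in small intestine. A single read was counted outside it, in kidney replicate 2 (FPKM 0.0256), and 5 libraries were at 0. The log2 difference was 4.73 (SE 0.12, adjusted p = 1.91e-07). With 3 reads over both libraries as the floor, Cdx2 was at least 432-fold higher in small intestine than in lung and at least 379-fold higher than in liver. Against the 1 read in kidney, the ratio was 2263 with an exact 95% interval from 405 to 89469, which covers counting error only. It was 1004 without kidney replicate 1 and, with that floor in 1 library, at least 417-fold without kidney replicate 2. Within the intestine the paralogs kept close to 1 ratio, with a Cdx1 to Cdx2 ratio of FPKM of 2.33 in replicate 1 and 2.27 in replicate 2. The remaining family member, Cdx4, was at most 0.0589 FPKM in any library and was not tested.

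The other family with its highest level in small intestine was the GATA group, and unlike the CDX genes each of its 3 endodermal members was also detected in at least 1 other organ. Gata4 (chr14:63198922-63271692) was at 25.6 and 25.2 FPKM in small intestine, at 1.84 and 2.41 in liver, at 0.262 and 0.247 in lung, and at 0.0239 and 0.0148 in kidney. The order was therefore intestine, liver, lung, kidney. Its log2 difference in small intestine was 4.06 (SE 0.14, adjusted p = 5.30e-07), and mean FPKM was 11.9 times that of liver and 99.5 times that of lung. Liver was above lung (lung minus liver -1.31 on the log2 scale, SE 0.17, adjusted p = 0.000207), whereas lung and kidney, with 22 and 3 reads over their libraries, were not called apart (log2 difference of kidney from lung -0.30, adjusted p = 0.144). Both were under an FPKM of 1 in every library, so on this scale that pair could not be called. Each lung library was nevertheless above both kidney libraries.

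Gata5 (chr2:180325133-180334699) was at 11.3 and 18.4 FPKM in small intestine, the widest gap between replicates among the intestinal genes, with a ratio of 1.62. In lung it was at 2.22 and 2.23, in kidney at 0.157 and 0.106, and in liver at 0 and 0.0591, where only 2 reads were counted. The lung libraries lie clear of kidney and liver and below both intestine libraries. Small intestine exceeded the other tissues by 3.32 on the log2 scale (SE 0.19, adjusted p = 5.28e-06), and its mean FPKM was 6.69 times that of lung. Set against the rest, lung was not called for Gata5 (0.30, adjusted p = 0.168), with -0.24 after median-of-ratios scaling but a call as higher with a pseudocount of 0.1 (1.63) and with limma-voom (2.43). In pairs, lung exceeded liver by 1.65 (SE 0.23, adjusted p = 0.000301) and was above kidney too (kidney minus lung -1.51, adjusted p = 0.000636). The call against kidney was lost after median-of-ratios scaling (-0.94), after quantile normalization (-0.59) and in the 4 libraries without forebrain genes (-1.48, adjusted p = 0.109), and the call against liver after quantile normalization (0.75). Of the exon bases of Gata5, 7.87% overlap the antisense gene Gata5os, which was at 2.10 and 1.05 FPKM in small intestine and at 0.366 and 0.336 in lung. Whether the counting used strand is not given in the sources used here.

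Gata6 (chr18:11052064-11085635) was the most widely distributed of the 10 genes. The small intestine libraries held 23.6 and 26.7 FPKM, the lung libraries 10.2 and 11.1, the liver libraries 1.95 and 2.09, and the kidney libraries 0.219 and 0.127. All 4 tissues are separated without overlap. Small intestine exceeded the other tissues by 2.92 on the log2 scale (SE 0.13, adjusted p = 1.98e-06), and its mean FPKM was 2.36 times that of lung. Lung was called higher as well, by 1.37 (SE 0.13, adjusted p = 4.94e-05), beside a median of 0.82 over all genes in that tissue. The lung call did not survive median-of-ratios scaling (0.42) or quantile normalization (0.50), nor did the difference of lung from liver, which was 1.95 as deposited and 0.61 and 0.70 under those scalings. In kidney, Gata6 was called lower (log2 difference -3.05, SE 0.13, adjusted p = 2.53e-06).

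The proportions of the 3 GATA genes differed between organs, as a description without a test. In lung, Gata6 made up 80.5% and 81.7% of their summed FPKM, Gata5 17.5% and 16.4%, and Gata4 2.06% and 1.82%. In liver the sum was split between Gata4 (48.6% and 52.8%) and Gata6 (51.4% and 45.9%), with Gata5 at 0% and 1.30%. In small intestine each of the 3 made up over 18%, with Gata4 at 42.2% and 35.8%, Gata5 at 18.7% and 26.2%, and Gata6 at 39.0% and 38.0%. Kidney, where Gata4 rested on 3 reads in all, had 5.98% and 5.99% Gata4, 39.2% and 42.8% Gata5, and 54.8% and 51.2% Gata6. The sum itself was 60.5 and 70.3 FPKM in small intestine, 12.7 and 13.6 in lung, 0.399 and 0.247 in kidney, and 3.79 and 4.56 in liver.

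**Figure D2:**
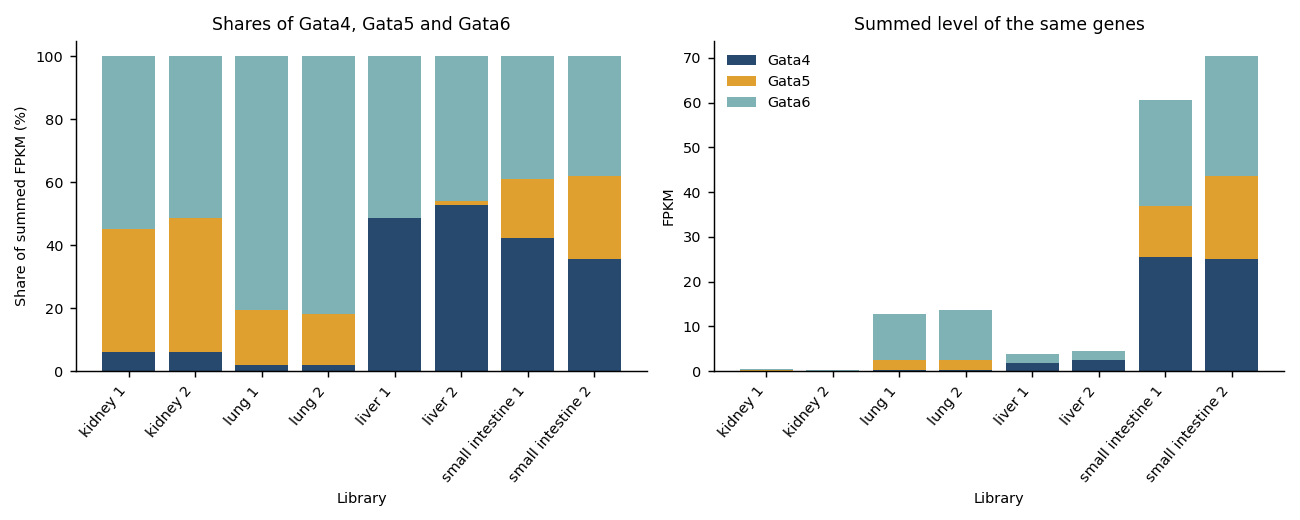
Left, share in percent of Gata4, Gata5 and Gata6 in their summed FPKM in each of the 8 libraries; right, the same genes as stacked FPKM from 0. Gata6 makes up over 80% in both lung libraries, Gata4 and Gata6 share the liver libraries, and each of the 3 genes makes up over 18% in small intestine, while the kidney bars on the left rest on sums of 0.399 and 0.247 FPKM.

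Markers of other cell types in which GATA factors are known to be expressed also differed between the organs. A list of 8 cardiac muscle genes, a cell type that expresses GATA4 and GATA6, summed to 258 to 266 FPKM in lung, 8.59 to 9.37 in small intestine and at most 1.69 in kidney and liver, and none of the 8 was at 0 in both lung libraries. The 5 mesothelial genes summed to 76.5 to 106 in lung, 6.21 to 7.28 in small intestine and at most 3.75 elsewhere. Genes of the liver sinusoidal endothelium, 5 in number, summed to 40.4 to 43.7 in liver, at most 8.90 in kidney and small intestine, and 125 to 137 in lung. The lung sum came mainly from Lyve1, at 127 and 114 FPKM, while Clec4g, Stab2 and Oit3 were under 0.5 there. Hepatic stellate cell genes, 4 in number, summed to 6.63 to 7.04 in liver, 7.95 to 13.0 in lung, at least 6.66 in small intestine and at most 0.764 in kidney. Their part in the GATA levels of lung and liver was not tested.

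For the intestinal libraries the difference in such regional genes stands beside these values. Of the 5 listed genes of the proximal small intestine, 4 were higher in replicate 1, which also held the stomach genes. The fatty acid binding protein gene Fabp1 was at 4629 and 2643 FPKM, the pancreatic and duodenal factor gene Pdx1 at 4.85 and 1.76, Onecut2 at 5.07 and 3.87, and Cybrd1 at 0.680 and 0.463, while the lactase gene Lct was at 127 and 131. The ileal bile acid transporter gene Slc10a2 went the other way, at 0.309 and 1.62 FPKM, and 6 pancreatic acinar genes summed to 1879 in replicate 1 and 849 in replicate 2. In the same libraries Gata4 was 1.02 times, Cdx1 1.12 times, Gata6 1.13 times and Cdx2 1.15 times as high in the higher replicate as in the lower, and Gata5 1.62 times. Leaving out 1 of the 8 libraries at a time, its small intestine difference ran from 2.99 to 3.64 on the log2 scale and stayed called. With 1 library of each kind, the region sampled, tissue carried over from neighbouring organs and the mouse cannot be told apart.

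**Figure D3:**
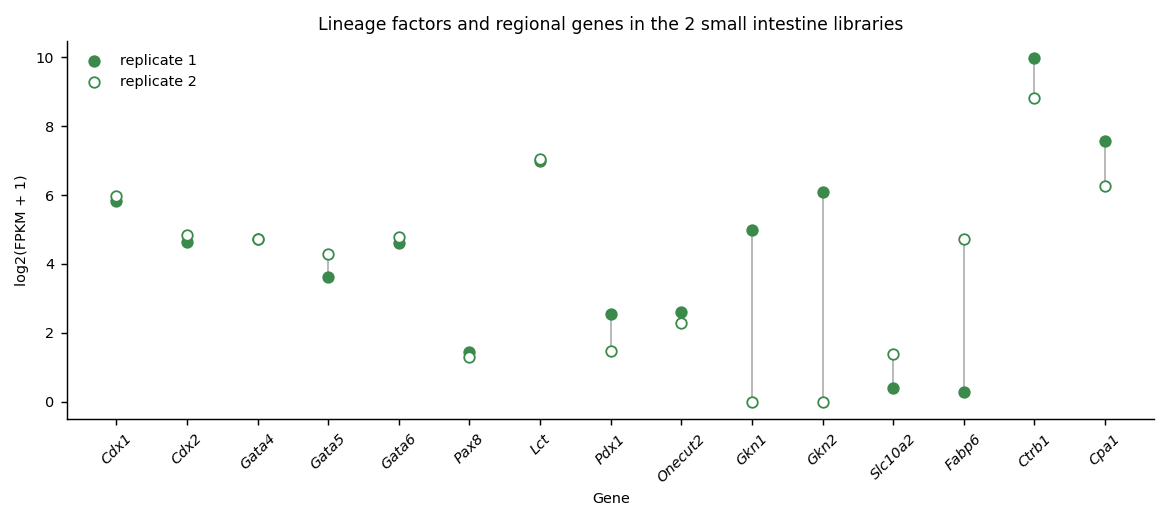
log2(FPKM + 1) of 6 lineage factors and of regional genes in small intestine replicate 1 (filled) and replicate 2 (open), each pair joined by a line. Cdx1, Cdx2, Gata4 and Gata6 nearly coincide, Gata5 is higher in replicate 2 (11.3 against 18.4 FPKM), and Gkn1, Gkn2 and Fabp6 lie far apart.

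The DNA before the transcription start of an intestinal gene from each family is shown to let a reader see how unlike these promoters are, although the genes share their main organ. The windows are 225 bases long, run from 250 to 26 bases before the RefSeq start on build GRCm38.p6, and are written 5′ to 3′ on the strand of the gene. Capitals mark matches, on either strand, to CCAAT or to the GC box GGGCGG.
Cdx2, chr5:147307275-147307499, minus strand: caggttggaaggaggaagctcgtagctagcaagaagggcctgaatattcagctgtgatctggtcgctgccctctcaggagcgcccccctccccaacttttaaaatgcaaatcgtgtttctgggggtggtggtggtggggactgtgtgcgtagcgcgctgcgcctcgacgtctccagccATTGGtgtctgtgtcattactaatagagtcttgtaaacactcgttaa
Gata5, chr2:180334705-180334929, minus strand: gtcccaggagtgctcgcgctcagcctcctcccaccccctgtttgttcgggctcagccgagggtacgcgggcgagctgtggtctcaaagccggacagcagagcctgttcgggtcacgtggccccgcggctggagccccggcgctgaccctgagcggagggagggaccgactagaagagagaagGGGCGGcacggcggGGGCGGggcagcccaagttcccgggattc
The Cdx2 window has 1 CCAAT box, read on the other strand, and a GC content of 53.8%, and the Gata5 window has 2 GC boxes and a GC content of 70.7%, beside a median of 52% over all promoters in the table. CCAAT was found in 31.6% and GGGCGG in 29.2% of the 32851 promoter windows of the same length. Neither window holds the GATA motif AGATAA, present in 9.30% of all windows, or the CDX core TTTAT, present in 34.6%.

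Genes that CDX factors are known to control were high in the same organ. All 8 listed targets were called higher in small intestine, with a median log2 difference of 6.27, where 13.7% of all genes were called. Of these targets, Sis, Lct, Cdh17, Muc2, Gpa33 and Isx were under an FPKM of 1 in every library outside small intestine. They passed the filter through that tissue alone, so the count is no test against all genes. Sucrase-isomaltase (Sis) was at 217 and 346 FPKM, the cadherin gene Cdh17 at 162 and 198, the A33 antigen gene Gpa33 at 114 and 137, and Lct at the values given above. The exception in distribution was the brush border protease gene Mep1a, at 17.0 and 33.8 FPKM in small intestine but at 377 and 325 in kidney, where Cdx1 and Cdx2 were at or under 2 reads per library. The GATA cofactor gene Zfpm1 (FOG1) was called higher in small intestine, by 1.86 (SE 0.21, adjusted p = 0.000196), with 17.9 and 11.0 FPKM there, 6.82 and 8.77 in liver, 3.51 and 4.20 in lung, and 0.852 and 0.561 in kidney. The other FOG gene, Zfpm2 (FOG2), was called in no tissue and had its lowest values in small intestine, at 0.0430 and 0.0533 FPKM, with 0.141 and 0.221 in kidney, 0.899 and 1.07 in liver, and 2.14 and 0.728 in lung. Of the remaining GATA genes, which act mainly in blood and other lineages, Gata2 was called higher in lung by 4.58 (SE 0.18, adjusted p = 7.71e-07; 38.8 and 37.8 FPKM), Gata3 was called in no tissue, and Gata1 was not tested.

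Nkx2-1 (chr12:56531958-56536908), the lung and thyroid factor, was the second-highest of the 10 genes by level. In lung it was at 52.9 and 58.6 FPKM, rank 976 and 874 of all genes in those libraries. Kidney was at 0 and 0.142 FPKM, the latter from 7 reads, liver at 0.0384 and 0.0341, and small intestine at 0.0376 and 0. No organ except lung came above a few reads. The log2 difference in lung was 5.77 (SE 0.13, adjusted p = 2.50e-07), beside the median of 0.82 over all genes in lung. The pooled ratio of lung to kidney was 882, with an exact 95% interval from 428 to 2196. All 7 kidney reads were in replicate 2, 1 of the 4 libraries with forebrain genes, whose part in these reads was not tested. Without that library, Nkx2-1 was at least 1139-fold higher in lung, with 3 reads in kidney replicate 1 as the floor, and without kidney replicate 1 the ratio of FPKM was 392. The thyroid is the other adult organ known for NKX2-1, and in the lung libraries 4 thyroid follicle genes summed to 0.538 and 0.496 FPKM, with Foxe1 at 0.
The promoter of Nkx2-1 is shown for comparison with the windows above, by the same rules, with capitals on the 1 match to the GC box.
Nkx2-1, chr12:56536934-56537158, minus strand: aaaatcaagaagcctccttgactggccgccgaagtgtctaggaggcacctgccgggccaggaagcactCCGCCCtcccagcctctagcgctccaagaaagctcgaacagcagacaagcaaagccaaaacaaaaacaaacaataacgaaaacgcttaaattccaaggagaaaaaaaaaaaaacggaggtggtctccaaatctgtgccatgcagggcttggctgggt
Its GC content is 50.7%, and the NKX2-1 core CTCAAG, found in 12.3% of all windows, is not in it.

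The known NKX2-1 targets in lung were all called higher there, 9 of 9 with a median log2 difference of 9.02, beside 40.7% of all genes. Lamp3, a gene of this list, passed the filter through lung alone. The secretoglobin gene Scgb1a1 of airway club cells reached 44164 and 59746 FPKM in lung, the surfactant protein genes Sftpc 13439.5 and 11569, Sftpb 1655 and 1535, and Sftpa1 1202 and 1012. Of the 9, the aspartic protease gene Napsa and the lipid transporter gene Abca3 were also called higher in kidney, by 5.75 and 1.65. Napsa was at 416 and 518 FPKM in kidney, above its 98.8 and 90.8 in lung, while Nkx2-1 was at 0 and 7 reads in those kidney libraries. Among the other NKX2 genes, Nkx2-3, a factor of gut and spleen mesenchyme, was the 1 gene that passed the filter and was called higher in small intestine, by 3.03 (SE 0.15, adjusted p = 2.92e-06), at 9.05 and 5.77 FPKM. The coactivator gene Wwtr1 (TAZ), a partner of NKX2-1, was called higher in lung by 2.59 (SE 0.16, adjusted p = 4.55e-06) and stood at 28.8 and 30.3 FPKM.

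Sox2 (chr3:34650405-34652461, a gene of 1 exon) was also highest in lung but had more signal outside its main organ than Nkx2-1. Its FPKM was 6.52 and 6.26 in lung, from 131 and 160 reads, and 0.584 and 1.04 in liver, from 11 and 22 reads. Kidney replicate 2 was at 0.674 from 24 reads and kidney replicate 1 at 0. Small intestine was at 0 and 0.0859. The lung libraries were at least 6.04 times as high as any other library, and in lung Nkx2-1 exceeded Sox2 by 8.11 and 9.36 times in FPKM. The log2 difference of lung was 2.46 (SE 0.21, adjusted p = 2.17e-05), and the mean FPKM was 7.89 times that of liver.

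Outside lung, Sox2 was above 2 reads in 3 libraries, kidney replicate 2 and both liver libraries, and these are among the 4 in which forebrain genes were found. Pax6, a factor of eye and forebrain, was at 0.568 FPKM in kidney replicate 2, 1.06 and 1.40 in liver and 0.876 in lung replicate 1, and at most 0.0906 in the other 4 libraries. Dlx2, a factor of forebrain interneurons, followed the same split, at 0.263, 0.344, 1.05 and 0.717 FPKM against at most 0.0309. The lung libraries had 6.52 FPKM of Sox2 beside 0.876 of Pax6 in replicate 1, and 6.26 beside 0.0275 in replicate 2. In the 4 libraries without forebrain genes, kidney replicate 1, lung replicate 2 and both small intestine libraries, the lung difference was 2.83 (adjusted p = 0.00905). The spread of this fit comes from the small intestine pair alone, the lone kidney and lung libraries are assumed to vary like it, and the fit was added after the values were seen. The kidney difference of Sox2, -0.89 with all libraries and not called, was -1.26 and called lower without kidney replicate 2. What part the RNA that sets these libraries apart, Hbb-y and Hoxc4 included, has in the Sox2 values of kidney and liver was not tested.

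**Figure D4:**
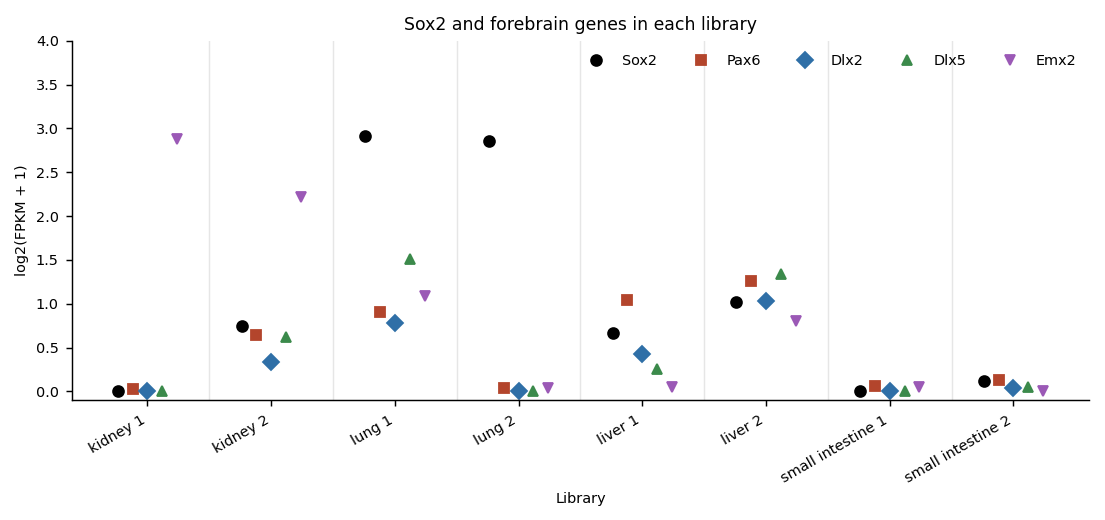
log2(FPKM + 1) of Sox2, the forebrain genes Pax6, Dlx2 and Dlx5, and Emx2 in each of the 8 libraries. Sox2 is high in both lung libraries, with Pax6 at 0.876 FPKM in one and 0.0275 in the other, and outside lung it is above 0.5 on this scale only in kidney replicate 2 and the liver libraries, where Pax6 is also present.

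The difference of Sox2 between lung and liver, 2.04 as deposited (SE 0.25, adjusted p = 0.000164), was 0.93 after median-of-ratios scaling and 0.76 after quantile normalization and then not called. Both liver libraries are among those with forebrain genes, so no value for liver could be had without them. The call for lung against all other tissues held under both (1.57 and 1.47). The non-coding gene Sox2ot, within which Sox2 lies, was at 0.0249 to 0.0763 FPKM in kidney and lung and at 0 in liver and small intestine. None of the other SOXB genes listed (Sox1, Sox3, Sox14 and Sox21) passed the filter, and Sox21 was at 0.216 and 0.297 FPKM in lung and at 0 in all other libraries.

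In kidney, the 2 paired box genes and Emx1 were the genes called higher. Pax2 (chr19:44756045-44837871) had the lowest peak level of the 10, with 2.79 and 1.74 FPKM, from 324 and 163 reads. Elsewhere a single read was counted, in liver replicate 2 (FPKM 0.0179), and the other 5 libraries were at 0. The log2 difference of kidney was 1.68 (SE 0.12, adjusted p = 2.73e-05). Measured against a floor of 3 reads over both libraries, Pax2 was at least 93.0-fold higher in kidney than in lung and at least 86.6-fold higher than in small intestine. The replicates differed by a ratio of 1.60.

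Pax8 (chr2:24420560-24475599) was at 6.53 and 5.25 FPKM in kidney and at 0 in both lung and both liver libraries. In small intestine it was at 1.73 and 1.47 FPKM, from 98 and 101 reads. The intestine is therefore a further site in these libraries, below kidney in both replicates and above lung and liver. The log2 difference of kidney was 2.32 (SE 0.12, adjusted p = 6.14e-06), and the mean FPKM of kidney was 3.68 times that of small intestine. Small intestine was above lung (lung minus small intestine -1.38, SE 0.15, adjusted p = 0.000124) and lay below kidney by 1.40 (SE 0.15, adjusted p = 0.000169). Against the mean of all 3 other tissues it was not called (0.45, adjusted p = 0.0160), but with a pseudocount of 0.1 (2.12) and with limma-voom on recovered reads (4.47) it was called higher. The 6 listed kidney tubule genes summed to 1.62 and 0.969 FPKM in small intestine and to 9.13 and 3.65 in lung, and their part in the Pax8 values of small intestine was not tested. Of the exon bases of Pax8, 6.06% overlap Gm13415 on the other strand, which was at most 0.0566 FPKM in any library.

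Emx1 (chr6:85187438-85204462), a gene better known from the cerebral cortex, was the highest of the kidney genes. The kidney libraries were at 10.4 and 11.9 FPKM, those of lung at 0.141 and 0.0368, of liver at 0 and 0.0443, and of small intestine at 0.0489 and 0. No library outside kidney held more than 3 reads. The log2 difference of kidney was 3.54 (SE 0.11, adjusted p = 7.35e-07). The pooled ratio to lung, from 4 lung reads, was 134 with an exact 95% interval from 52.2 to 493, and the ratio of FPKM was 302 without lung replicate 1 and 79.2 without lung replicate 2. Its relative Emx2, needed for the growth of the ureteric bud and nephrons, was also called higher in kidney, by 2.21 (SE 0.32, adjusted p = 0.000797), at 6.35 and 3.64 FPKM. Emx2 did show values outside kidney, at 1.13 FPKM in lung replicate 1 and 0.742 in liver replicate 2, both among the libraries with forebrain genes. Its kidney difference was 2.38 without lung replicate 1, 2.33 without liver replicate 2 and 2.85 (adjusted p = 0.0130) in the 4 libraries without forebrain genes, and it was called in each. The last fit, chosen after the values were seen, takes its spread from the small intestine pair alone. What part the RNA that sets those libraries apart, Hbb-y and Hoxc4 included, has in the Emx2 values was not tested. The Emx1 to Emx2 ratio of FPKM was 1.63 and 3.27 in the kidney libraries, and the Pax8 to Pax2 ratio 2.34 and 3.02.

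Promoter windows of both kidney paired box genes are shown because these paralogs overlap in function and in organ but not in the intestine. Capitals mark matches to CCAAT and GGGCGG in Pax8 and to the CDX core TTTAT in Pax2, on either strand.
Pax8, chr2:24475625-24475849, minus strand: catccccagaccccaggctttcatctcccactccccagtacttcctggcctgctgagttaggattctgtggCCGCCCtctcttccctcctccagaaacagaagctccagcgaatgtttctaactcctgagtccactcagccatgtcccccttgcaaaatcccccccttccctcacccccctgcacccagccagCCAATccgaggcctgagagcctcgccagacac
Pax2, chr19:44755502-44755726, plus strand: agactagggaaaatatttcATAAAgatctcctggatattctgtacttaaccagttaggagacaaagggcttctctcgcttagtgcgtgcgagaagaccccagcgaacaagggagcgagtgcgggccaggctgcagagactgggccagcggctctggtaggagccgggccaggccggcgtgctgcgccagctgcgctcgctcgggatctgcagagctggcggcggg
The Pax8 window has a GC content of 60.0% with 1 CCAAT box and 1 GC box, and the Pax2 window 60.4% with neither. RefSeq gives Pax2 further starts, which are not shown. A promoter window was at hand for 7 of the 10 genes, and the GATA and NKX2-1 motifs spelled out above were in none of them. The letters of TTTAT and AGATAA can overlap in 1 site, and a match or its absence in these short windows is a description only.

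Of 9 targets and partners of PAX2 and PAX8 in kidney, 7 were tested and 5 called higher in kidney, with a median log2 difference of 3.39, where 8.65% of all genes were called. The 5 were the kidney cadherin gene Cdh16 (224 and 187 FPKM), the water channel genes Aqp2 (80.1 and 120) and Aqp3 (45.7 and 33.4), the nephron factor gene Lhx1 (7.08 and 4.54), and the urea transporter gene Slc14a2 (14.1 and 7.27). They include genes of the mature tubule and collecting duct as well as a factor of nephron formation. Aqp2, Lhx1 and Slc14a2 were under an FPKM of 1 in every library outside kidney. These genes passed the filter through kidney alone, so the count is no test against all genes. Wnt4, a signal of nephron induction, was not called in kidney. It was called higher in lung by 1.47 (SE 0.14, adjusted p = 3.66e-05), where the median over all genes was 0.82, and this call was lost after median-of-ratios scaling (0.73) and quantile normalization (0.52). Ret, the receptor of the ureteric bud tip, was at 0.0276 and 0.00854 FPKM in adult kidney and was not tested. Its values were higher in lung, at 1.74 and 0.976 FPKM, and in small intestine, at 0.521 and 0.548, and 0 in liver. Aqp3 was also called higher in small intestine, by 1.21, at 14.5 and 8.16 FPKM. Among the other paired box genes, only Pax5, a B cell factor, was called anywhere, higher in lung by 1.72 (SE 0.11, adjusted p = 6.98e-06), a call that was lost after quantile normalization (0.90).

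In liver the highest members were Gata4 (1.84 and 2.41 FPKM) and Gata6 (1.95 and 2.09), whose means were 11.9 and 12.5 times as high in small intestine, followed by Sox2. The other 7 were at 2 reads or fewer in each liver library. The summed FPKM of all 10 was 4.41 and 5.75 in liver, against 20.2 and 20.0 in kidney, 72.4 and 78.5 in lung, and 142 and 162 in small intestine. No member was called higher in liver, where 6.56% of all genes were, and none had a positive difference at an unadjusted p under 0.05. Gata4, at -0.05 on the deposited scale (SE 0.14, adjusted p = 0.730), was called higher with a pseudocount of 0.1 (1.11) and by limma-voom on recovered reads (1.94). Its liver level lay above lung and kidney and below small intestine.

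**Figure D5:**
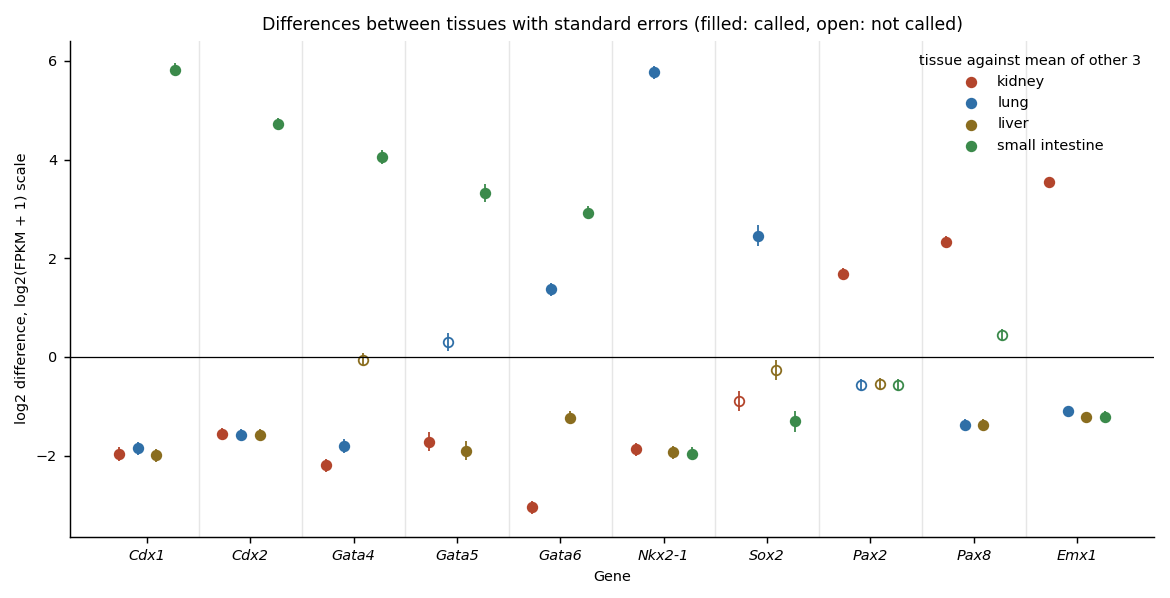
Difference of each tissue from the mean of the other 3 on the log2(FPKM + 1) scale for each of the 10 genes, with bars for the standard error from limma and filled symbols for differences that were called. The highest symbols belong to small intestine for the CDX and GATA genes (2.92 to 5.82), to lung for Nkx2-1 and Sox2 and to kidney for Pax2, Pax8 and Emx1, and all liver symbols lie at or below 0.

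Comparing tissues in pairs, 39 of the 60 differences of the 10 genes (65%) were called, beside 40.4% over all genes tested. The 39 include calls of the 5 genes that passed the filter through 1 tissue alone. The filter favours such calls, so these shares are no test of the group. By pair, 8 of 10 were called between kidney and small intestine (29.5% of all genes) and between lung and small intestine (40.6%), 7 between kidney and lung (50.3%), 6 between liver and small intestine (36.2%), and 5 between kidney and liver (23.1%) and between lung and liver (62.7%). Levels in neighbouring organs that were not called apart were mainly those near 0. For Cdx1, Cdx2, Nkx2-1, Pax2 and Emx1, each of the 3 pairs of organs outside the main one went uncalled. All their values there were under an FPKM of 1, so on the log2(FPKM + 1) scale no such pair could pass the limit of 1. The same held for Gata4 between lung and kidney and for Gata5 between kidney and liver. Gata6 was called in all 6 pairs and Gata4 in 5, Gata5 in 5 with kidney and liver as the pair not called, and Pax8 in 5 with lung and liver both at 0. Sox2 was called in the 3 pairs with lung, and liver exceeded small intestine by 0.78 (SE 0.25, adjusted p = 0.0298), under the limit of 1 as deposited but 1.17 after median-of-ratios scaling and then called.

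As a measure of how far a gene was confined to 1 tissue, tau was computed from the tissue means on the log2(FPKM + 1) scale, with 0 for equal levels and 1 for a single tissue. It ran from 0.62 for Gata6 to 0.999 for Cdx2, and 9 of the 10 genes were over 0.8. The 5 genes that passed the filter through 1 tissue alone were under an FPKM of 1 in every other library. That favours a high tau without fixing it near 1, so the count is not set against all genes. The paralogs differed in this respect. Pax2 had a tau of 0.997 and Pax8 0.835, whereas Cdx1 (0.986) and Cdx2 (0.999) were alike and Gata4 (0.859), Gata5 (0.840) and Gata6 (0.620) formed a series.

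The genes whose log2(FPKM + 1) followed each factor most closely over the 8 libraries had a Pearson r of 0.987 to 0.99996. The 8 points share 4 tissues, so these values are a description. For Cdx1 they were the neuropeptide gene Vip, Tubal3 and the chloride exchanger gene Slc26a3, and for Cdx2 Pnliprp2, Alppl2 and the tachykinin gene Tac1. Gata6 was followed by Tgfbi (33.1 and 37.0 FPKM in small intestine, 15.2 and 16.1 in lung and at most 4.83 elsewhere), Kpna2 and Ifih1. Gata4 was followed by Gbp2b, Mrpl15 and 1810046K07Rik, and Gata5 by Sept5, Mst1r and 9130230L23Rik. Sept5 was at 34.2 and 64.5 FPKM in small intestine replicates 1 and 2, with the higher value in the same library as for Gata5. For Nkx2-1 the closest genes were 9230104L09Rik, the cilium gene Cfap58 and Sln, a calcium pump regulator of atrial muscle at 15.9 and 17.5 FPKM in lung, where the cardiac list given above was also high. Sox2 was followed by Gm6166, the homeobox gene Meis1 and Rap1b, with lower r than the others. In kidney, Pax2 was followed by the amino acid transporter gene Slc7a12, Gm48851 and Gm53, Pax8 by 4933417A18Rik, the D-amino acid oxidase gene Dao and Klk1b5, and Emx1 by Gm6300, the posterior homeobox gene Hoxc10 and the peptide hormone gene Apela. Dao shared the intestinal site of Pax8, with 78.6 and 68.9 FPKM in kidney and 8.0 and 6.22 in small intestine, at most 0.382 in lung and 0.328 in liver.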

How the data were processed

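Tissues were excised and ground, and poly(A) mRNA was turned into cDNA and a transposase-made library. The authors mapped reads with STAR 2.5.3a to GRCm38 (Ensembl release 75) and deposited FPKM values, from DESeq2 and its fpkm function. The counting program and its use of strand are not given in the sources used here. Of the 52195 symbols, 99.3% matched 1 gene of GENCODE M21, whose exon lengths gave back reads (94.6% to 96.1% of values under 50 reads were whole within 0.02). Reads of Gata6 did not come out whole. The authors' cell type estimates were not used.

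Tissues were compared, each against the average of the rest and in pairs, with limma 3.58.1 (R 4.3.3) on log2(FPKM + 1), with a trend and Benjamini-Hochberg adjustment. Python 3.11.15 with numpy 2.4.6, pandas 2.3.3, scipy 1.17.1 and matplotlib 3.10.9 did the rest. Intervals and the floor of 3 reads cover counting error only. Alternatives changed the pseudocount, filter, scaling, variance model, unit and libraries. Members and lists were chosen with earlier results of these data known. Named genes were the 10 members, the 3 genes most like each by Pearson r, and, in fixed lists, mostly the highest members; others in small counts were named after their values were seen. Some genes of these lists are not reported here.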

Additional observations from a re-analysis of the deposited data

How the results depend on the processing

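The difference of each gene in the tissue where it was highest was repeated over 17 alternatives. Of these 170 repeats, 170 kept their direction and call. The sizes moved, from 1.45 to 7.69 on the log2 scale for Pax2, 1.47 to 5.38 for Sox2, 2.19 to 6.98 for Pax8, 4.50 to 10.3 for Cdx2, 4.87 to 10.5 for Nkx2-1, 3.45 to 7.71 for Emx1, 2.99 to 6.04 for Gata5, 3.70 to 6.69 for Gata4, 5.53 to 9.71 for Cdx1 and 2.67 to 4.02 for Gata6, with the highest value of each from limma-voom. Of 84 repeated counts, 81 stayed within 1.5 times. The exceptions were the count called higher in liver, which was 1 (Gata4) with a pseudocount of 0.1 and with limma-voom, against 0, and the pairs called in the 4 libraries without forebrain genes, 22, where 3 pairs without liver remain, against 23 as deposited over those pairs. Leaving out 1 library at a time gave counts of 3 to 3 in kidney, 3 to 3 in lung, 0 to 0 in liver, 5 to 5 in small intestine and 39 to 39 over pairs. With the replicate number as a block the counts were 3, 3, 0, 5 and 39. Same-numbered libraries deviated with a correlation of -0.217 to 0.0528 between tissues, so the numbers were not taken to pair the libraries, although tissues share mice. Lung had 2 genes called under median-of-ratios or quantile scaling, without Gata6, and 4 with a pseudocount of 0.1 or limma-voom, with Gata5; small intestine had 6 under the latter settings, with Pax8. The two-sided exact test of 2 libraries against 6 cannot go below 0.0714, and genes under 3 reads cannot be ordered.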
